A study of Drosophila melanogaster with 8 samples.

Results

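The RNAs described here are the abundant non-coding transcripts recovered with ribosomes from Drosophila melanogaster testis. They are the rows of the deposited table without a coding call, with a name made of CR and digits (the FlyBase form for a gene without a protein product), and with 1000 or more normalized reads as their mean over 7 libraries. The rule found 70 genes among 1267 such CR rows (5.52%) and 12051 rows in all. The members were thus chosen by their mean level in these same libraries, so their levels are a description. They are called the abundant CR RNAs below.

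The study precipitated ribosomes with antibodies to eRpL22 or to eRpL22-like, paralogous large-subunit ribosomal proteins, and asks which RNAs are found on each ribosome population. Every sample was testis from wild-type flies, with no transgene or treatment given, taken between day 2 and day 7. The labels list 4 replicate pulldowns per paralogue, and values for eRpL22 replicate 4 were not analysed here, which leaves 3 eRpL22 and 4 eRpL22-like libraries. The labels name no input RNA and no mock precipitate, so RNA held by ribosomes cannot be told apart from background that both pulldowns share. Nothing says whether replicates came from separate groups of flies, so every p-value rests on library-to-library spread, and that spread may be technical. The main test combines the spread of each gene with that of other genes of like level.

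Long non-coding RNAs are transcripts beyond the size of small RNAs that carry no annotated long reading frame. The fly testis is known to transcribe many of them, many of them during sperm formation. Of the paralogues, eRpL22 is found in most tissues and eRpL22-like is enriched in the male germline. Some long non-coding RNAs are found on ribosomes and hold short reading frames, and others act in the nucleus or cytoplasm without being translated, so presence in a ribosome precipitate does not show translation.

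Totals of reads recovered from the table ran from 15971685 to 26346787 per library. All 12 germline genes listed as testis markers had means of at least 10 normalized reads and together took 1.27% to 1.52% of a library. dj, a sperm protein gene, was at 77652 to 115299 normalized reads, whereas bam, a spermatogonial gene, varied widely. bam was at 1.5, 1.02 and 451 with eRpL22 and 185, 15.7, 0 and 0 with eRpL22-like. All 5 accessory gland markers were also present, at 0.120% to 0.212% of a library. Muscle markers took 0.0118% to 0.105%, cyst and hub markers 0.00441% to 0.0149% and neuronal markers at most 0.0146%. Fat body markers took at most 0.000734%, but only 3 of 4 had a row and 1 a mean of at least 10. Hemocyte markers took at most 0.000719%, with a row for only 1 of 3. The part of other cell types in the results was not tested. In bulk samples, fewer cells of a type and less RNA per cell cannot be told apart.

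By current names, most of the 70 genes carry the long non-coding label and 7 do not. All 70 identifiers matched a current symbol. In the RefSeq gene table of Release 6 plus ISO1 MT, 59 are now lncRNA genes, 4 antisense RNA genes (CR44370, CR45834, CR44207 and CR44027), 5 pseudogenes (CR33318, CR17438, CR43734, CR43975 and CR43142) and 2 protein-coding genes. The last pair, CR43405 and CR43610, are now CG43405 and CG43610. They are singled out for their class, after their values were seen. CR43405 averaged 2435 ± 549 normalized reads in the eRpL22 libraries (SD, n = 3) and 2352 ± 1147 in the eRpL22-like libraries (SD, n = 4). CR43610 averaged 1737 ± 1562 (SD, n = 3) and 1551 ± 504 (SD, n = 4) in turn. The name history runs the other way too: of the 68 genes still under a CR name, 15 (22.1%) list an earlier CG name, the form for a coding gene, against 118 of 1252 CR rows so named (9.42%). Among the 12 abundant CR RNAs with the most reads the count was 5, namely CR32658, CR9284, CR32652, CR32690 and CR42850.

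The abundant CR RNAs took close to 1 read in 100 in every library, in both pulldowns. Their summed share of normalized reads was 1.11%, 1.10% and 1.21% in eRpL22 replicates 1, 2 and 3. In eRpL22-like replicates 1 to 4 it was 0.953%, 1.28%, 1.23% and 1.15%. Means were 1.14% ± 0.0583 (SD, n = 3) and 1.15% ± 0.144 (SD, n = 4), a difference smaller than either SD. The top 3 RNAs alone supplied 23.8% to 34.6% of these reads. For comparison, 3402 of 10686 coding rows (31.8%) reached a mean of 1000.

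Among other rows without a coding call, 11 reached a mean of 1000, and 8 of them were ribosomal RNA genes or pseudogenes. The remaining 3 were MRE16, swaPsi and Yu, at means of 8974, 1555 and 1366 normalized reads. The best known fly non-coding RNAs stood lower. roX1, an RNA of the X-chromosome dosage compensation complex, ranged from 12.7 to 484 normalized reads, and Hsromega, a stress-responsive nuclear RNA, from 15.1 to 558. The 5 Uhg genes, hosts of small nucleolar RNAs, had means of 74.0 to 229. None of the 20 small nucleolar RNA rows, 14 small nuclear RNA rows and 16 transfer RNA rows reached a mean of 1000.

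CR32658 (FBgn0040859) had the most reads of the group and ranked 71st of all rows by reads. The table gives no gene lengths, so these are orders of reads and not of molecules. It was at 27514, 29219 and 37264 normalized reads in eRpL22 replicates 1, 2 and 3 and at 24486, 26471, 24340 and 26881 in eRpL22-like replicates 1 to 4. All eRpL22 libraries lay above all eRpL22-like libraries, by a margin of 1.02-fold at the closest pair. CR9284 (FBgn0046297) came next, at 24566, 23979 and 23483 with eRpL22 and 17731, 23072, 21081 and 21098 with eRpL22-like. Its libraries also did not overlap, again by a margin of 1.02-fold. The limma log2 fold changes (eRpL22-like over eRpL22, on the log2(normalized reads + 1) scale) were -0.28 with an SE of 0.18 for CR32658 and -0.22 with an SE of 0.20 for CR9284. Neither passed, at limma unadjusted p-values of 0.132 and 0.285 and an adjusted p of 0.945 for each. Without eRpL22 replicate 3 the log2 fold change of CR32658 was -0.15, and without eRpL22-like replicate 1 that of CR9284 was -0.14. The 95% intervals, -0.66 to 0.09 and -0.62 to 0.19, leave out a 2-fold change in either direction.

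CR32652 (FBgn0052652) held the third place, at 15630, 23499 and 18234 normalized reads with eRpL22 and 9690, 18910, 16938 and 17438 with eRpL22-like. The groups overlapped, and eRpL22-like replicate 1 was the lowest library. CR32657 (FBgn0052657) was at 14427, 7855 and 10292 with eRpL22 and at 11587, 11823, 13558 and 11482 with eRpL22-like, so the eRpL22 libraries spanned the others. CR32690 (FBgn0052690) was at 9678, 5659 and 9245 with eRpL22 and 6622, 12358, 11260 and 11458 with eRpL22-like. Of its libraries, 3 of the eRpL22-like group were above all eRpL22 libraries and the other was not. CR42850 (FBgn0262097) was at 7643, 11632 and 11487 with eRpL22 and 9439, 8551, 6923 and 9114 with eRpL22-like, with overlap. Compared library by library, CR32658 was above CR9284 in 7 of 7 libraries and CR9284 above CR32652 in 7 of 7. CR32652 was above CR32657, and CR32657 above CR32690, in 6 of 7. From CR32690 down to CR44370, each RNA was above the next in 3 to 5 of 7 libraries, so that order is not resolved by the libraries.

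CR44455 (FBgn0265648) was at 9598, 8902 and 5370 normalized reads with eRpL22 and at 8653, 7458, 9876 and 8057 with eRpL22-like. CR43264 (FBgn0262945) was at 12518, 7862 and 5760 with eRpL22 and at 6697, 7038, 10755 and 6042 with eRpL22-like. In both, each pulldown had libraries above and below libraries of the other. CR42767 (FBgn0261835) had the widest spread among the top 12, at 3922, 6603 and 10657 with eRpL22 and 3325, 7098, 13380 and 6533 with eRpL22-like. CR44389 (FBgn0265539) was at 9029, 4877 and 3917 with eRpL22 and 4612, 4106, 9354 and 3424 with eRpL22-like, with 1 high library in each pulldown. CR43684 (FBgn0263767) was at 4222, 4462 and 4074 with eRpL22 and 4847, 4738, 8035 and 4682 with eRpL22-like. All 4 eRpL22-like libraries were above the eRpL22 libraries, by 1.05-fold at the closest pair. CR44370 (FBgn0265508), an antisense RNA gene, was at 4793, 4615 and 5499 with eRpL22 and 4348, 3883, 6485 and 4801 with eRpL22-like, with overlap.

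**Figure D1:**
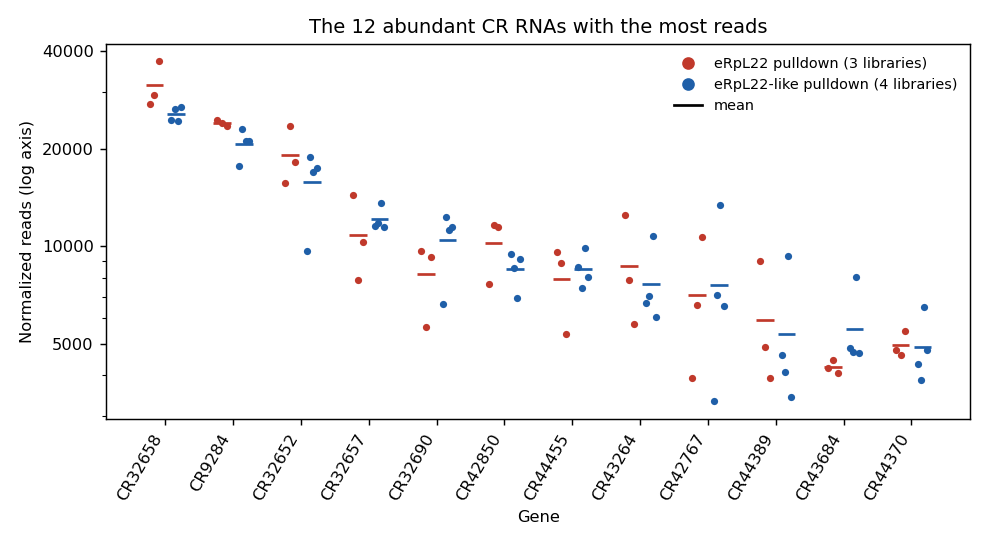
Normalized reads (log axis) of the 12 abundant CR RNAs with the most reads, in 3 eRpL22 libraries (red points) and 4 eRpL22-like libraries (blue points), with each pulldown's mean as a line. The means of CR32658 and CR9284 lie above the others, although single points of CR32652 reach the range of CR9284. The points of the pulldowns overlap for all but CR32658, CR9284 and CR43684.

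No abundant CR RNA passed the test between the pulldowns. limma, adjusted by Benjamini-Hochberg over all 11174 genes tested, called 0% of them and 0 of the 70. At an unadjusted p under 0.05 stood 1 of the 70 (1.43%), CR32661, against 4.11% of all genes tested and 6.43% of the 3483 with a mean of at least 1000. edgeR's quasi-likelihood test on the recovered reads called 0 of the 70 and 0% of all genes, and 2 of the 70 had an unadjusted p under 0.05 against 6.38%. DESeq2 on those reads called 0 of the 70 against 1.36% of 9187 genes, and 3 had an unadjusted p under 0.05 against 9.52%. The authors' deposited table called 0 of the 70 against 0.174% of its genes. It gave 5 an unadjusted p under 0.05 (5.53% of all genes): CR32661, CR32835, CR44178, CR43835 and CR46040. In the authors' deposited table their log2 fold changes were -1.09, 0.94, 1.38, -0.91 and -0.92, with DESeq2 adjusted p-values of 0.532, 0.823, 0.841, 0.875 and 0.833.

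Directions were mixed. By limma, 33 of the 70 had a positive and 37 (52.9%) a negative log2 fold change, against 51.2% negative over all genes tested and 53.8% over those with a mean of at least 1000. The median was -0.05 for the 70 and -0.03 for all genes. With library totals as the only scaling, the median became 0.05 for the 70 and 0.06 for all genes. An estimated change of 2-fold or more was found for 13 of the 70 (18.6%), against 15.9% of the 3483 genes at or above a mean of 1000 and 49.6% of all genes tested. For 13 of the 70 the 95% interval excluded a 2-fold change in both directions, as it did for 17% of those 3483 genes. For the median abundant CR RNA the interval reached 2.75-fold either way, from 1.29-fold for the tightest to 6.36-fold for the widest. In this limma fit, an estimated change smaller than these could not reach an unadjusted p under 0.05 for the RNAs concerned. Other tests have other limits. Larger ones could go uncalled too, because the intervals are not adjusted for the number of genes tested. The interval of CR32661, -2.03 to -0.066 (log2), left out no change, yet its limma adjusted p was 0.945.

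**Figure D2:**
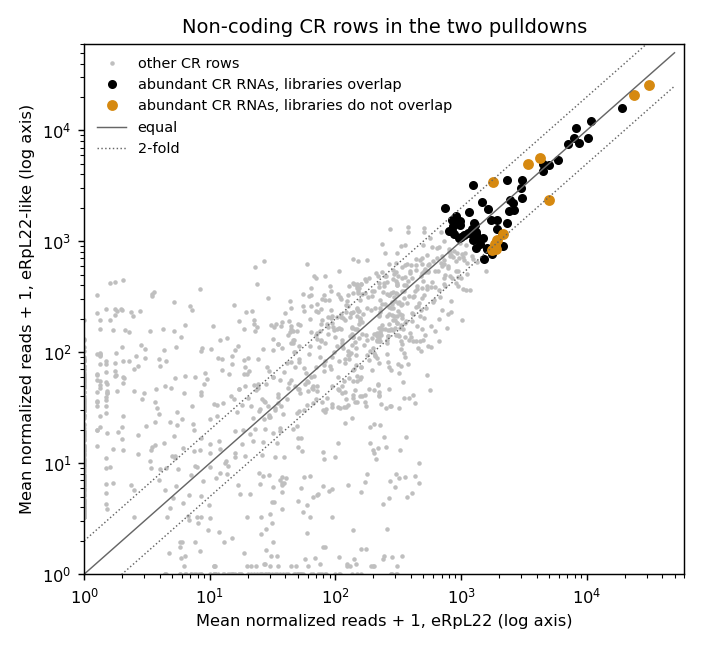
Mean normalized reads plus 1 with eRpL22 (horizontal, log axis) and with eRpL22-like (vertical, log axis) for the 1267 CR rows. Grey points are rows under the threshold, black points abundant CR RNAs with overlapping libraries and orange points the 12 without overlap. Most of the 70 lie between the dotted 2-fold lines, 9 of the orange points are on the eRpL22 side and 3 on the eRpL22-like side.

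For 12 of the 70 (17.1%) the library values did not overlap between the pulldowns, which held for 5.14% of all genes tested and 5.97% of genes whose mean reached 1000. Of the 12, 9 were higher with eRpL22 (12.9% of the 70, against 2.76% of all genes) and 3 higher with eRpL22-like (4.29%, against 2.38%). None passed the limma test, and most were separated by narrow margins. The count depended on scaling: it was 8 with library totals only (11.4% of the 70, against 4.91% of all genes), 10 with TMM factors (14.3%, against 5.1%) and 8 with quantile normalization (11.4%, against 5.99%). Separation held under all 4 scalings for 7 genes, CR32661, CR32835, CR43835, CR46040, CR33218, CR44302 and CR45020, and not for CR32658, CR9284, CR43684, CR45808 and CR17438.

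CR32661 (FBgn0030356) had the smallest p of the 70. It was at 6248, 2857 and 5838 normalized reads with eRpL22 and 2825, 2449, 1512 and 2559 with eRpL22-like. The groups were separate, but eRpL22 replicate 2 was 1.01 times the highest eRpL22-like library. By limma it differed by -1.05 (log2, SE 0.48, unadjusted p = 0.0372, adjusted p = 0.945).

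CR32835 (FBgn0052835) was the clearest case on the eRpL22-like side. It was at 2148, 1010 and 2204 normalized reads with eRpL22 and 4117, 4221, 2556 and 2849 with eRpL22-like, a ratio of means of 1.92. The closest libraries were 1.16-fold apart, and limma gave a log2 fold change of 0.99 (SE 0.53, unadjusted p = 0.0686, adjusted p = 0.945). CR45808 (FBgn0267458) was at 2977, 3403 and 3900 with eRpL22 and 4541, 3931, 7321 and 4039 with eRpL22-like, 1.01-fold apart at the closest pair. Its limma log2 fold change was 0.49 and that of CR43684 was 0.35, with SEs of 0.42 and 0.39. Both shrank without eRpL22-like replicate 3, to 0.29 and 0.16, and kept their direction. The log2 fold change of CR32835 was 0.62 without eRpL22 replicate 2.

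Several RNAs near the threshold had means about 2-fold higher with eRpL22. CR46040 (FBgn0267707) had the widest gap of the 12, 1.22-fold, at 2424, 1523 and 1822 normalized reads with eRpL22 and 810, 1246, 855 and 1153 with eRpL22-like. CR43835 (FBgn0264383) was at 3158, 1833 and 1526 with eRpL22 and 1164, 1184, 1356 and 912 with eRpL22-like. CR33218 (FBgn0053218) was at 1987, 1876 and 1745 with eRpL22 and 467, 1487, 619 and 1226 with eRpL22-like. The eRpL22 libraries of CR33218 were close to each other, and its eRpL22-like libraries were spread from 467 to 1487.

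CR17438 (FBgn0030116), a pseudogene by current class, was at 1425, 1628 and 2550 normalized reads with eRpL22 and 1330, 732, 286 and 1259 with eRpL22-like. Pseudogenes can share reads with their parent genes, so values of all 5 are uncertain. CR45020 (FBgn0266378) was at 2231, 1257 and 1758 with eRpL22 and 1177, 387, 1066 and 736 with eRpL22-like. CR44302 (FBgn0265348) was at 1757, 1425 and 2481 with eRpL22 and 135, 1106, 1417 and 778 with eRpL22-like. Its closest pair was 1.01-fold apart, and eRpL22-like replicate 1 was far below the rest. The limma log2 fold changes of these 6 genes, from CR46040 to CR44302, lay between -0.86 and -1.53. Their SEs were 0.65 to 0.84 and their unadjusted limma p-values 0.0777 to 0.2. These SEs also draw on other genes of like level. The SE of CR46040 was 0.69, although the SD of its log2 values within pulldowns was 0.32. The log2 fold change of CR43835 was -0.55 without eRpL22 replicate 1, and that of CR17438 was -0.76 without eRpL22-like replicate 3.

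**Figure D3:**
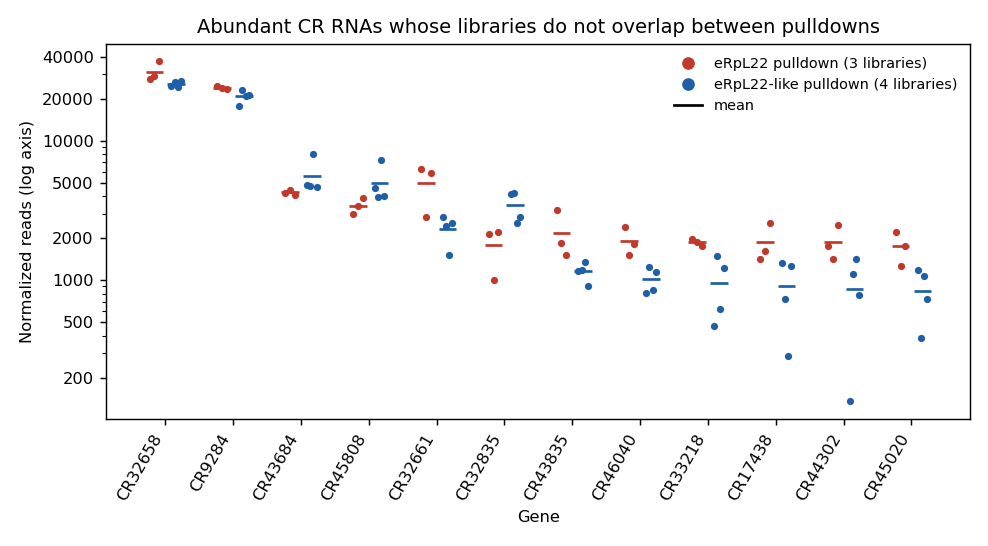
Normalized reads (log axis) of the 12 abundant CR RNAs whose libraries did not overlap, in 3 eRpL22 libraries (red) and 4 eRpL22-like libraries (blue), with means as lines. The eRpL22-like points sit above the eRpL22 points for CR43684, CR45808 and CR32835 and below them for the other 9, with narrow gaps in most.

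The 3 largest limma changes, on the log2(normalized reads + 1) scale, belonged to RNAs that nearly vanished from a single eRpL22-like library. The largest log2 fold changes of the 70 in the authors' deposited table were others, 1.42 for CR43681, 1.38 for CR44178 and -1.26 for CR46007. CR44921 (FBgn0266226) was at 1592, 1058 and 1889 normalized reads with eRpL22 and 5.46, 1554, 836 and 396 with eRpL22-like, where 5.46 corresponds to 6 reads. CR45203 (FBgn0266730) was at 1704, 1337 and 2787 with eRpL22 and 3.64, 461, 3533 and 1188 with eRpL22-like, where 3.64 corresponds to 4 reads. Both low values fell in eRpL22-like replicate 1, and for both RNAs the other libraries overlapped between pulldowns.

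Without eRpL22-like replicate 1, the limma log2 fold change of CR44921 went from -2.61 (SE 1.30) to -0.88 and that of CR45203 from -2.59 (SE 1.32) to -0.57. CR44207 (FBgn0265105), an antisense RNA gene, was at 1284, 1514 and 2042 with eRpL22 and 803, 1694, 17.8 and 897 with eRpL22-like. Its low value was in eRpL22-like replicate 3, and without that library its log2 fold change went from -2.03 (SE 1.11) to -0.57. CR44055 (FBgn0264864) was at 972, 1414 and 2878 with eRpL22 and 179, 1449, 1134 and 323 with eRpL22-like. Its log2 fold change of -1.51 (SE 0.89) became -0.96 without eRpL22-like replicate 1. The log2 fold change of CR44302 was -1.53 with that library and -0.78 without it. With all 7 libraries kept, edgeR on recovered reads gave -1.12 for CR44921, -0.60 for CR45203 and -0.91 for CR44207, and DESeq2 gave -1.12, -0.58 and -0.92. None of these 5 passed, with unadjusted limma p-values from 0.052 to 0.0985.

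Replicate spread fell steeply with level. The spread was taken as the SD of log2(normalized reads + 1) within pulldowns, pooled over both. Its median was 0.318 for the 11 abundant CR RNAs with means of at least 5000, 0.538 for the 15 at 2000 to under 5000 and 0.875 for the 44 under 2000. Counting error alone would give medians of 0.0146, 0.0256 and 0.0398. Coding genes of the same levels had medians of 0.392, 0.629 and 1.02, and 4, 4 and 13 of the abundant CR RNAs lay above these.

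Thus 21 of the 70 spread more than the median coding gene of their level class. The smallest spread was that of CR9284, at 0.125, followed by CR32658 at 0.157, CR44370 at 0.26, CR42850 at 0.268 and CR43734 at 0.28. CR43734 (FBgn0263985), a pseudogene, was even though its level was low, at 1024, 1225 and 1384 normalized reads with eRpL22 and 1653, 980, 1301 and 1175 with eRpL22-like. The largest spread was that of CR45203, at 3.28, followed by CR44921, CR44207, CR45234 and CR43681. CR45234 (FBgn0266769) was at 1214, 1045 and 258 with eRpL22 and 4018, 1815, 208 and 165 with eRpL22-like. CR43681 (FBgn0263764) was at 244, 471 and 1531 with eRpL22 and 5951, 505, 1123 and 413 with eRpL22-like, so its place in the group rested on eRpL22-like replicate 1.

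**Figure D4:**
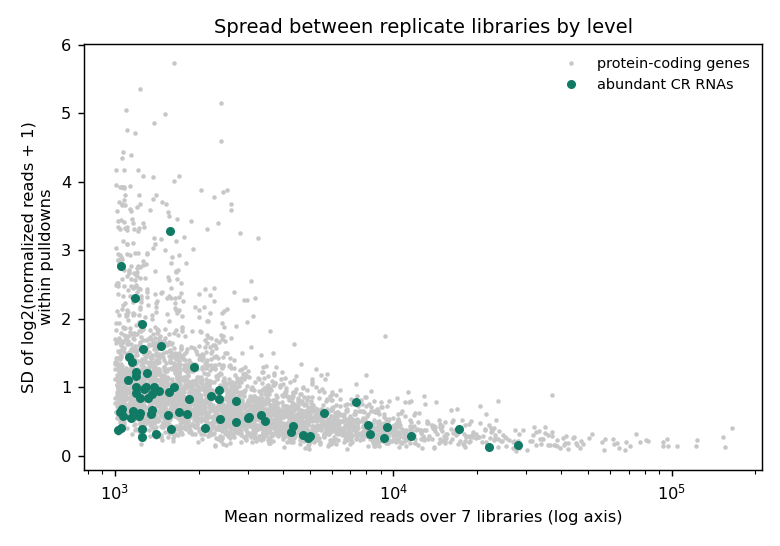
SD of log2(normalized reads + 1) within pulldowns (vertical) against mean normalized reads over 7 libraries (horizontal, log axis) for coding genes (grey) and the 70 abundant CR RNAs (green), all with means of at least 1000. Green points fall from up to 3.28 near the threshold to 0.125 for CR9284, inside the cloud of coding genes.

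Across the 70 RNAs the highest library exceeded the lowest by a median of 3.93-fold. The ratio was under 2 for 10 RNAs and at least 10 for 14. Every library was at 1000 or more for 23, and the median library for 63. A library under 100 normalized reads was found for 3 of the 70, all named above. Of the 44 under 2000, these 3 make 6.82%, and 17.9% of the 1379 coding genes of that level had such a library. The highest library was eRpL22 replicate 1 for 21 of the 70, eRpL22-like replicate 3 for 16 and eRpL22 replicate 3 for 14. The lowest was eRpL22-like replicate 1 for 16. eRpL22 replicate 1 had the largest normalized total, 23878890. Of that total, 3943644 belonged to mt:lrRNA, a mitochondrial ribosomal RNA gene, which was at 1325392 to 2587657 in the other libraries. Whether the counts of highest and lowest libraries are particular to the 70 was not tested.

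Some abundant CR RNAs overlap a coding gene that had fewer reads. In the RefSeq gene table, by spans from gene start to gene end, 33 of the 70 overlap another gene and 29 a protein-coding gene. Strand and exons were not used, so a CR gene inside an intron counts as overlapping. For 20 of the 29 the coding gene is listed in the deposited table. Its mean was under 10% of that of the CR RNA in 11 cases, between 10% and 100% in 5 and higher in 4, with a median of 6.98%. The CR RNAs were chosen for means of at least 1000, which 31.8% of coding rows reached. A lower coding gene is thus partly set by that choice, and other overlapping pairs were not examined. Whether counting used strand is not given in the sources used here. Reads of overlapping genes on opposite strands, antisense RNAs included, therefore cannot be told apart.

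CR32658 and CR32657 are neighbours inside Ten-a, which encodes a teneurin, a cell-surface protein of synapse matching. Ten-a had a mean of 22.0 normalized reads, at most 135 in any library, against 28025 for CR32658 and 11575 for CR32657. CR44370, classed as antisense, lies within Fs, which encodes follistatin, an antagonist of activin-type ligands. Fs had a mean of 18.0 against 4918 for CR44370. CR43684 lies within Sytbeta, a synaptotagmin gene, at means of 5008 and 39.8.

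CR45808 lies within Hipk, a homeodomain-interacting protein kinase gene, which had a mean of 1226 against 4302. The 4 cases with a higher coding gene were CR44017 in gpp, a histone methyltransferase gene, CR44302 in CG30015, CR43605 in CG33144 and CR44055 in dpr3, which encodes an immunoglobulin-family surface protein. Means of those coding genes were 3340, 2830, 1875 and 2830 normalized reads, or 158%, 218%, 149% and 237% of the CR RNA. For CR44302 the host CG30015 was at 4979, 4848 and 2149 with eRpL22 and 1698, 1785, 3169 and 1179 with eRpL22-like. The host libraries overlapped only because eRpL22-like replicate 3 was above eRpL22 replicate 3. This host leaned towards eRpL22, as did CR44302, whose libraries were 1.01-fold apart at the closest pair. The other hosts stood differently. gpp was at 1259, 3705 and 1524 with eRpL22 and 5164, 3778, 3768 and 4183 with eRpL22-like. CG33144 was at 1824, 162 and 1181 with eRpL22 and 5257, 635, 2955 and 1113 with eRpL22-like. dpr3 was at 1642, 3599 and 3008 with eRpL22 and 3291, 2955, 2085 and 3233 with eRpL22-like. The limma log2 fold changes of CR44017, CR43605 and CR44055 were -0.34, -0.47 and -1.51. The part of host reads in the values of these 4 RNAs was not tested.

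**Figure D5:**
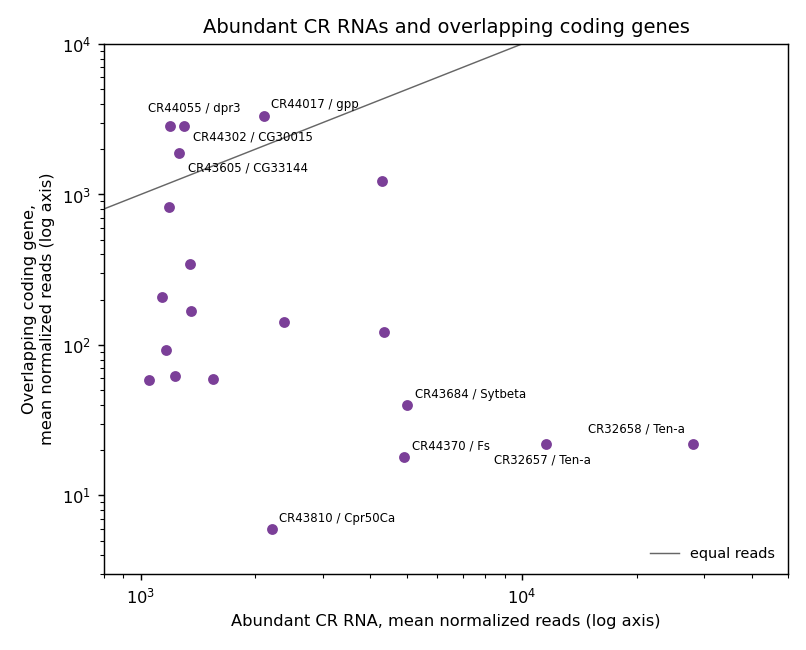
Mean normalized reads over 7 libraries of 20 abundant CR RNAs (horizontal, log axis) and of the protein-coding gene that overlaps each (vertical, log axis). The line marks equal reads, and labels are given as CR RNA then coding gene where the coding gene is under 1% or over 100% of the CR RNA. Only 4 points lie above the line, and CR32658, CR32657, CR44370, CR43684 and CR43810 have coding genes far below it.

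Some abundant CR RNAs are immediate neighbours, and the libraries of such a pair could stand differently. CR32661 and CR43157 adjoin, and CR43157 (FBgn0262687) was at 5346, 3788 and 4335 normalized reads with eRpL22 and 6448, 5301, 3863 and 4061 with eRpL22-like. CR43157 thus overlapped between pulldowns where CR32661 did not. CR44207 and CR44208 adjoin within CG1688, and CR44208 (FBgn0265106) was at 3174, 2210 and 926 with eRpL22 and 544, 1762, 570 and 1739 with eRpL22-like. In eRpL22-like replicate 3 CR44207 was at 17.8 and CR44208 at 570. CR43484 and CR43485 also adjoin, with means of 1916 ± 1089 (SD, n = 3) and 1538 ± 119 (SD, n = 4) for CR43484 and 1498 ± 584 (SD, n = 3) and 1063 ± 176 (SD, n = 4) for CR43485. These neighbours were looked up after values were seen.

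The other 42 abundant CR RNAs had means from 1029 to 4735 normalized reads and single libraries from 191 to 6714. All 42 had overlapping libraries. Their limma log2 fold changes ran from -1.35 for CR46007 to 1.20 for CR44178, and the smallest unadjusted p was 0.0715, for CR44178. CR44178 (FBgn0265067) averaged 1236 ± 583 in the eRpL22 libraries (SD, n = 3) and 3224 ± 2469 in the eRpL22-like libraries (SD, n = 4), with 6714 in eRpL22-like replicate 1 far above the rest.

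The lowest RNAs inside the threshold were CR44921, CR45237 and CR44590, at means of 1047, 1039 and 1029 normalized reads. The first outside were CR44308, CR44225 and CR43909, at 993, 989 and 985. With the spread at this level, membership near the threshold depended on single libraries: leaving out 1 library at a time gave 68 to 75 RNAs, of which 64 to 70 were among the 70.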

How the data were processed

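Testis ribosomes were precipitated with an antibody to either paralogue, their RNA was isolated with Trizol, and Kapa Hyper libraries were read from 1 end, per the labels' protocols. Tools named in the submitters' processing notes are STAR, DESeq2, cutadapt and Trim Galore. Build, annotation, counter and strand setting are not stated by any source used here, so no coordinates are printed.

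Columns were matched to pulldown and replicate by their header names, which carry 22 or LK and a number, and not by any explicit key, so the labels of all values rest on that reading. Per the file headers, the table holds the authors' normalized expression per library (a signal), their log2 fold change, their Wald statistic (a score) and their p-values. The deposited signal is whole reads times a factor per library (100% of values whole within a relative 1e-06). A read was worth 0.747 to 1.50 normalized reads, and a count of 0 allows up to 3 reads, for counting error only.

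The main test was limma 3.58.1 (R 4.3.3, empirical Bayes with trend) on log2(normalized reads + 1), for 11174 genes with a mean of at least 10, two-sided, with Benjamini-Hochberg adjustment at 0.05 over all of them. edgeR 4.0.16 and DESeq2 1.42.0 on recovered reads were alternatives. Scripts were tested on simulated data. Summaries used numpy 2.4.6 and pandas 2.3.3. Names and overlaps came from a gene name table and the RefSeq gene table of Release 6 plus ISO1 MT. Sequences were not used here, so planned sequence features were not computed.

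The genes and lists were chosen with earlier results of these data known. Values in every library are given for the 12 highest, the 12 without overlap, the 5 with the largest and the 5 with the smallest spread, and the 5 with the largest log2 fold change, 28 genes in all. Alternatives covered scaling, pseudocount, filter, trend, tool, block and single libraries. Those for the count without overlap were added after seeing the data.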

Additional observations from a re-analysis of the deposited data

Results flagged for a closer look

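Among the 4 eRpL22-like libraries, 4 of the 70 abundant CR RNAs had a single library far from the other 3 by Dixon's test at its 95% level, with gaps of 0.836 to 0.951 of the whole range. Chance alone gives about 1 in 20 groups such a library, and 4 of 70 is close to that rate. The test was made on normalized reads and not on the log2 scale. CR32657 was at 13558 normalized reads in eRpL22-like replicate 3, against 11482 to 11823 in the other 3. CR43684 was at 8035 in eRpL22-like replicate 3, against 4682 to 4847, and CR45589 was at 3417 in the same library, against 435 to 857. CR43681 was at 5951 in eRpL22-like replicate 1, against 413 to 1123.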

How the results depend on the processing

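The log2 fold change was examined for 16 abundant CR RNAs, those without overlap or with the largest log2 fold changes. All 288 values under 18 alternatives kept their direction and their side of the threshold, where no value passed. Much of this was set in advance. Leaving out 1 library cannot turn the direction where libraries do not overlap. Changes of filter or trend leave the log2 fold change as it was. The replicate block gave the same log2 fold changes as leaving out eRpL22-like replicate 4. Sizes moved: CR45203 went from -2.59 to -0.58 with DESeq2 on recovered reads. The number of the 70 called was 0 under every alternative, leave-one-out and replicate block included. Over all genes the count of 0 became 125 with DESeq2 on recovered reads and 1 with quantile normalization. The share of reads with eRpL22, 1.14%, was 1.29% when ribosomal RNA genes were left out of the total, and that with eRpL22-like went from 1.15% to 1.27%, which turns the order of the pulldowns within their SDs. With eRpL22 it was 1.11% to 1.16% without 1 library. With eRpL22-like it was 1.11% to 1.22% without 1 library. The number of RNAs was 155 at a mean of at least 500, 26 at 2000 and 23 with every library at 1000, and 68 to 75 without 1 library. The count without overlap was 8 to 10 under other scalings (11.4% to 14.3%, against 4.91% to 5.99% of all genes) and 11 of 63 for genes now classed as lncRNA or antisense RNA (17.5%, against 5.14%). Without 1 library it was 13 to 18, and the share of all genes tested rose with it, to 8.67% to 12.4%. Same-numbered libraries correlated at 0.0684, 0.0633 and 0.0854 in their deviations from pulldown means, under 0.1, so they share a number and were not treated as pairs. Among numbers 1 to 3, each library correlated best with its own number, as a hint from the data. The replicate block, fitted without eRpL22-like replicate 4, called 0 genes with 293 at an unadjusted p under 0.05. Counting error (median SD of 0.0146 to 0.0398, log2) was far under the spread between libraries (0.318 to 0.875), which limits what can be called.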

Other observations

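As a description over 7 libraries and 3483 genes with a mean of at least 1000, the genes with the log2 pattern most alike to the 3 RNAs with the most reads were as follows, with values that share libraries and scaling. For CR32658 they were ssp5, bun and Dhit (Pearson's r of 0.956, 0.928 and 0.924). For CR9284 they were betaTub60D, CG5623 and CG43331 (0.987, 0.986 and 0.970). For CR32652 they were CG1142, Dgk and CG45066 (0.978, 0.962 and 0.958). No test was made of these values, which are high by choice, as the highest among 3483 genes over only 7 libraries.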
